A study of Homo sapiens with 4 samples.

Results

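The genes examined here build, start and feed DNA replication forks. They are 43 genes of DNA replication and S phase, chosen by name (the MCM helicase, origin licensing factors, GINS, the PCNA clamp and its RFC loader, replicative polymerases, lagging strand enzymes, RPA, nucleotide supply enzymes and E2F factors). All 43 were found among the 59050 genes of the count files, and all 43 were among the 17479 genes that passed the filter on low counts. Poly(A) RNA-seq was available for 4 libraries from cells labelled HepG2, a line established from a human liver tumor. The 2 untreated libraries (0 h) received no drug. None was labelled 24 h, the time of the treated ones, so drug and time cannot be told apart. The 2 doxorubicin libraries came from cells given 1 µg/ml doxorubicin, an anthracycline that poisons topoisomerase II and breaks DNA, for 24 h in order to induce p53. The titles call the untreated group nop53 and the treated group p53. No genetic change between the groups is described, and the series compared them to find mRNAs that respond to p53. Levels are given as CPM, the count of a gene divided by the total of its library and scaled to 1e6 counts. The lowest count of any of the 43 genes in a library was 127 (POLE2) and the highest was 39580 (RRM1).

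Replication is prepared in G1, when the origin recognition complex, CDC6 and CDT1 load the MCM2-7 ring onto DNA, and it starts in S phase, when CDC45 and GINS turn that ring into an active helicase. PCNA, loaded by RFC, then tethers the polymerases, while RPA coats single strands and FEN1 and LIG1 mature Okazaki fragments. Many of these genes are targets of E2F factors, and they are known to be repressed through p21 and RB after p53 is activated. In bulk RNA, fewer cells in S phase and less RNA per cell cannot be told apart.

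Untreated replicate 2 stood apart from the other libraries, and fold changes of the 43 genes are therefore given with and without it. Where a pair stands in parentheses, the first is the log2 fold change ± SE with all libraries and the second is the value without untreated replicate 2. Library totals ran from 27572740 to 36272180 counts. Across the genes tested, the treated libraries had a Pearson r of 0.988 with each other in log2 CPM, the untreated libraries had 0.887, and untreated replicate 1 with doxorubicin replicate 1 had 0.979. Replication-dependent histone transcripts, which lack a poly(A) tail and are made in S phase, took 0.331% of the counts of untreated replicate 2 against 0.0459% to 0.0565% in the others. Small RNAs without a poly(A) tail took 0.0294% there and 0.0147% to 0.0202% elsewhere. Their part in the results was not tested. The liver label was also checked. The summed level of 15 hepatocyte and HepG2 markers was 1.35 and 5.89 CPM in untreated replicates 1 and 2, and 17.1 and 20.1 CPM in doxorubicin replicates 1 and 2, of which the 3 fibrinogen genes FGA, FGB and FGG made up 13.8 and 17.8 CPM in the treated cells. ALB, encoding albumin, had at most 3 counts in any library, and of the 15 markers 7 and 0 were at 0 in the untreated libraries and 2 and 6 in the treated ones. The defining liver markers were therefore near 0, against the label, while KRT8 (a keratin of simple epithelium) ran from 2088 to 4105 CPM and KRT17 (a keratin of squamous epithelium) from 929 to 1587 CPM. KRT19, EPCAM and CDH1, also typical of simple epithelium, had at most 21 counts in any library. Of the other squamous markers, KRT5, KRT6A and TP63 had at most 13 counts in any library. KRT14 ran from 2.39 to 7.43 CPM and SFN from 153 to 723 CPM. The summed level of 5 fibroblast markers ran from 166 to 280 CPM, but not all of them were present. COL1A2 had at most 2 counts in any library, and DCN ran from 0.469 to 7.69 CPM. COL1A1 ran from 46.4 to 84.4 CPM, COL3A1 from 46.0 to 70.0 CPM and LUM from 49.3 to 163 CPM.

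E2F motifs were frequent in promoters of the module. A promoter of RefSeq (GRCh38.p14, 250 bases before to 50 after the start site) was held for 37 of the 43 genes. MCM4, MCM5, GINS4, POLD3, RPA2 and RPA3 had none in that table. The E2F motif was searched on both strands as TTTGGCGC, TTTCCCGC, TTTGCCGC or TTTCGCGC. It was found in 20 of 37 promoters (54.1%), against 701 of 10935 promoters of tested genes (6.41%) and 1090 of all 27305 promoters (3.99%). The 200 bases before the start site are shown for 6 of these genes, of different roles, 5′ to 3′ on the strand of the gene, with motif matches in capitals. MCM6 has a pair of places where TTTGGCGC overlaps TTTCGCGC read from the other strand. A match is a stretch of letters, not evidence of binding.
MCM6 (chr2:135876444-135876643, minus strand): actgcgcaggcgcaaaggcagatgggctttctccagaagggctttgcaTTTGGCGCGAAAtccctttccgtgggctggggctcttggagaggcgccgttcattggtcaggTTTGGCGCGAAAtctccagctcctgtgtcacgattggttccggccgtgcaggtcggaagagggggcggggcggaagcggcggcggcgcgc
MCM7 (chr7:100101398-100101597, minus strand): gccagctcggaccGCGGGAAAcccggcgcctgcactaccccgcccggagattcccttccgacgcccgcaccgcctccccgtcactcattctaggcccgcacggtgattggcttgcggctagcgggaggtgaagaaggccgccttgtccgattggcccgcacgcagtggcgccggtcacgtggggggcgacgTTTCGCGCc
GINS2 (chr16:85688955-85689154, minus strand): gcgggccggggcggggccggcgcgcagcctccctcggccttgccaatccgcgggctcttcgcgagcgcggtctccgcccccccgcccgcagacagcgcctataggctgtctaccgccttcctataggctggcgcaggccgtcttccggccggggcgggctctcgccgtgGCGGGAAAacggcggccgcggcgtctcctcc
CDT1 (chr16:88803589-88803788, plus strand): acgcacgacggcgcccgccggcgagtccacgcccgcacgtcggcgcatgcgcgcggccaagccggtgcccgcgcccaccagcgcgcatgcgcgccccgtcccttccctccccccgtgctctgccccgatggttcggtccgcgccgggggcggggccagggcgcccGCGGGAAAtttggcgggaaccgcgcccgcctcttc
PCNA (chr20:5126623-5126822, minus strand): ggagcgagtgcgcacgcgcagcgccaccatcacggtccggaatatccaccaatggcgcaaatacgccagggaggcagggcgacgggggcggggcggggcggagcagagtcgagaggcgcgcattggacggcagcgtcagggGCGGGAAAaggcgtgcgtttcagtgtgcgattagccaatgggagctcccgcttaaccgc
E2F1 (chr20:33686386-33686585, minus strand): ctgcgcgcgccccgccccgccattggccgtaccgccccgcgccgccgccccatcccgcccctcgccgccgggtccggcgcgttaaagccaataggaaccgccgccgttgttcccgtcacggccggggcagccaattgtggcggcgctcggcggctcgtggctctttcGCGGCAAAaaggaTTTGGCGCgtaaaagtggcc

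Other promoter motifs were counted in the same windows. The CHR element (TTTGAA or TTCGAA), typical of G2/M genes, was found in 2 of 37 promoters of the module (5.41%), in 12 of 16 promoters of a G2/M list (75%) and in 19.5% of all promoters. CCAAT was found in 23 of the 37 (62.2%), in 14 of the 16 G2/M promoters (87.5%) and in 39.7% of all promoters. Within the module, the 20 genes with an E2F motif had a median log2 fold change of -0.59 (doxorubicin over untreated, 17 below 0), and the 17 without one had -0.42 (13 below 0). Without untreated replicate 2 the medians were -0.31 and -0.33. The order of the medians thus depended on that library.

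Most of the 43 genes were at a lower level in the doxorubicin libraries, but none passed the test. In the quasi-likelihood test of edgeR, 0 of 17479 genes (0%) passed both thresholds, an adjusted p (Benjamini-Hochberg) under 0.05 and a difference of 1 or more on the log2 scale, and the smallest adjusted p was 0.773. An unadjusted p under 0.05 was found for 768 genes. The exact test of edgeR called 46 genes, its likelihood ratio test 64 and DESeq2 89, none of them in the module, where the smallest adjusted p by DESeq2 was 0.438. With 2 libraries a group, an exact permutation test of 1 value cannot go below p = 0.333. The log2 fold change was below 0 for 35 of the 43 genes, against 49.2% of all genes tested, and the median was -0.57 against 0.01. It was -1 or lower for 6 genes, against 11.5% of all. At an unadjusted p under 0.05 in edgeR, 6 genes were lower (1.73% of all genes) and 0 were higher (2.66% of all). These were MCM5, MCM7, ORC1, GINS2, FEN1 and TK1.

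The libraries themselves showed the same tilt. Both doxorubicin libraries lay below both untreated libraries in CPM for 26 genes, against 11.5% of all genes, and above both for 4 (GINS1, RFC1, PRIM1 and POLD3), against 30.3% of all. The other 13 overlapped. On CPM scaled by TMM factors, a scale chosen after the data were seen, these counts were 32 (17.9% of all) and 2 (21.3% of all). Set against untreated replicate 1 alone, both doxorubicin libraries were lower for 32 genes (24.7% of all), both were higher for 6 (53.1% of all), and 5 were mixed. For 28 genes untreated replicate 2 had the highest of the 4 values (36.6% of all), and for 9 it had the lowest (45.1% of all). The plot of members by library shows these positions gene by gene.

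**Figure D1:**
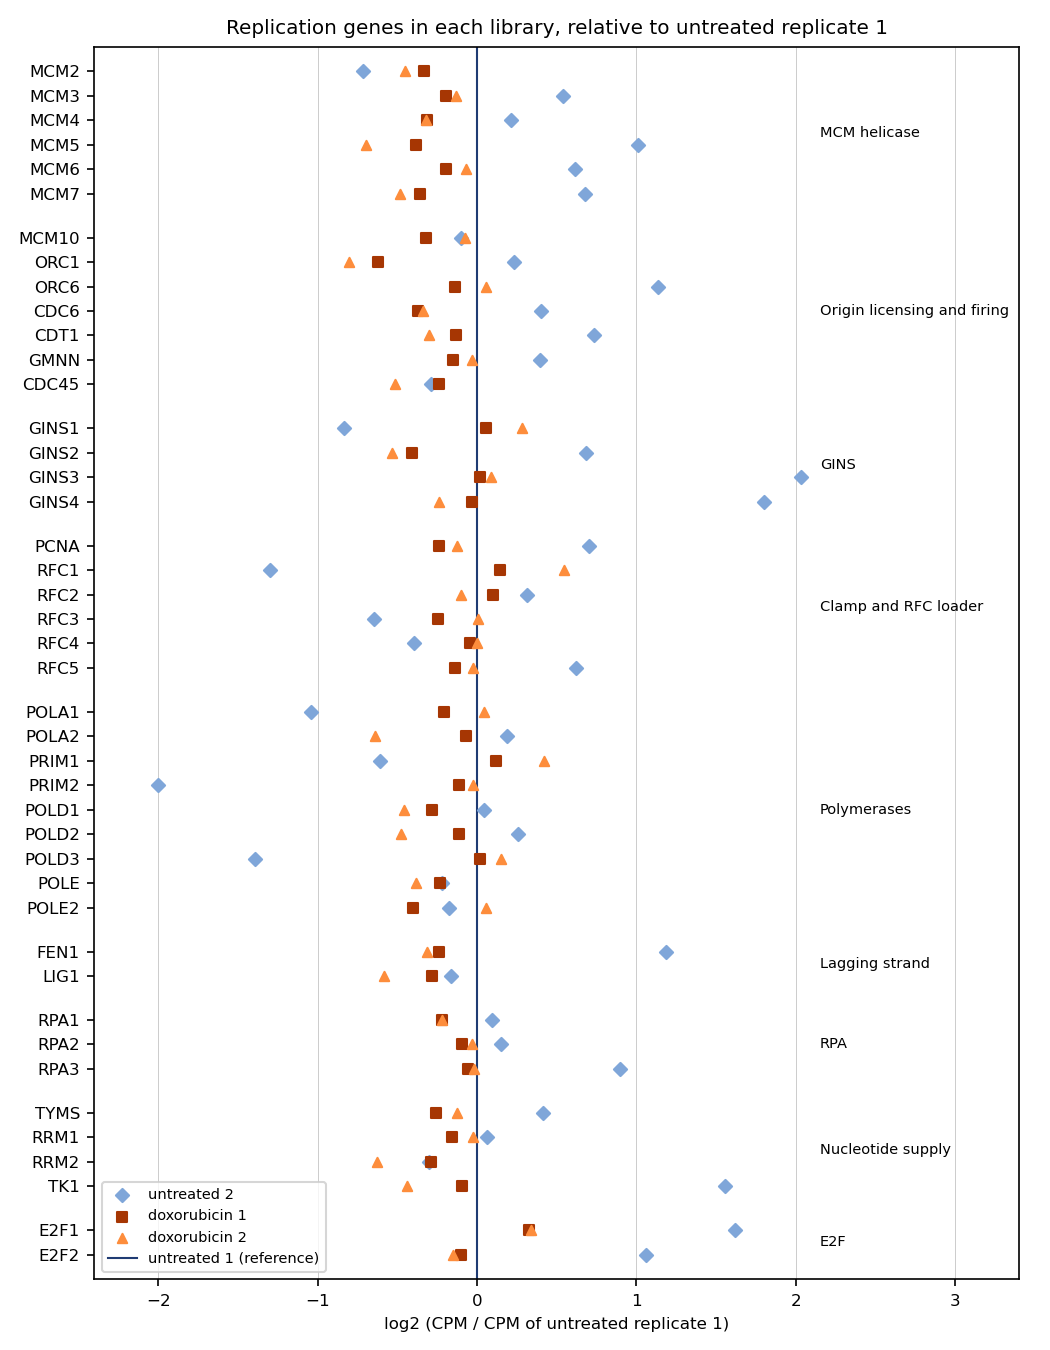
Each row is 1 of the 43 genes, grouped by role; the x axis is the log2 ratio of its CPM to that in untreated replicate 1 (line at 0), with diamonds for untreated replicate 2, squares for doxorubicin replicate 1 and triangles for doxorubicin replicate 2. Both doxorubicin points lie left of 0 for 32 genes, while untreated replicate 2 spreads from GINS3 on the far right to PRIM2 on the far left.

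When untreated replicate 2 was left out, the tilt was smaller and more uniform. The log2 fold change was then below 0 for 39 of 43 genes, against 46% of all genes tested, with a median of -0.31 against 0.05. In that edgeR fit the lone untreated library is assumed to vary like the doxorubicin libraries. At an unadjusted p under 0.05, 12 genes were lower (6.83% of all genes) and 0 higher (12.7% of all genes). At an adjusted p under 0.05, 2 genes were lower, ORC1 and MCM5 (1.84% of all genes), and 0 higher (5.23% of all genes). Without untreated replicate 1 in its place, 31 of the 43 genes had an adjusted p under 0.05 in edgeR, against 56.4% of all genes. Both of these values count either direction. Of the 31, GINS1, RFC1, POLA1, PRIM1, PRIM2 and POLD3 were higher (log2 fold changes of 0.70 to 1.75), and the others were lower. The member median in that fit was -0.69. With the fold threshold as well, 7173 genes of the series were called. Without doxorubicin replicate 1 or 2, 1 and 0 of the 43 had an unadjusted p under 0.05, near the shares of 1.22% and 1.33% over all genes, with medians of -0.63 and -0.43.

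**Figure D2:**
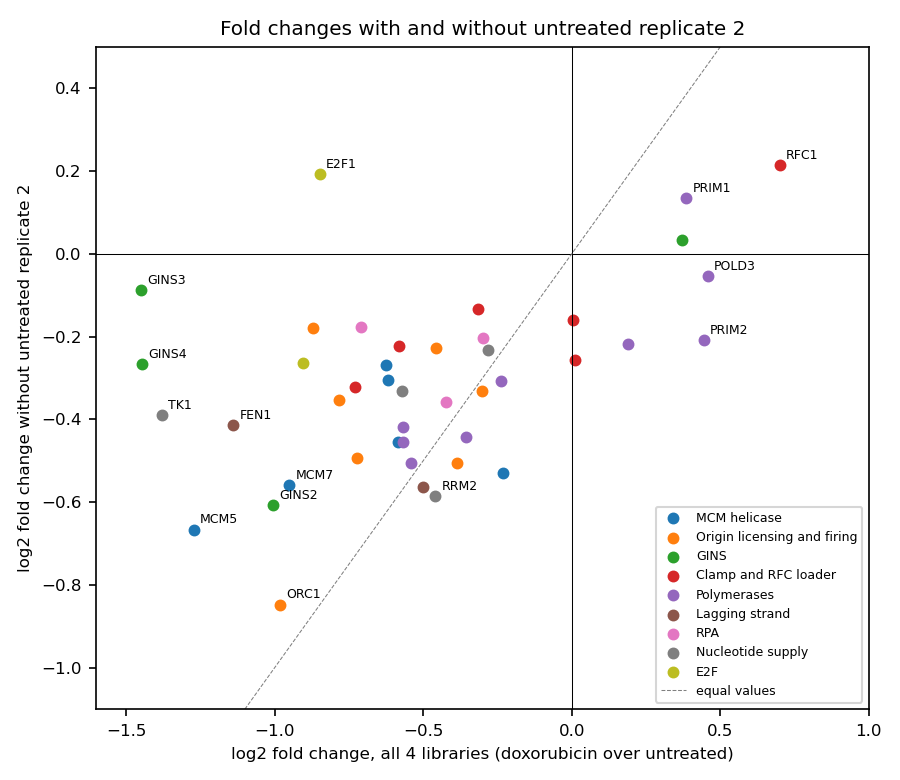
Each point is 1 of the 43 genes, colored by role, with the log2 fold change (doxorubicin over untreated) from all 4 libraries on the x axis and from the 3 libraries without untreated replicate 2 on the y axis; error bars are not drawn. ORC1 and MCM5 are lowest on the y axis, GINS3, GINS4 and TK1 are far left on the x axis only, and E2F1 lies on opposite sides of 0.

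The 6 subunits of the MCM2-7 ring, the motor of the replicative helicase, were lower as a group. Their summed level was 2047 and 2807 CPM in untreated replicates 1 and 2, and 1655 and 1588 CPM in doxorubicin replicates 1 and 2. The groups did not overlap, and the doxorubicin mean differed from the untreated mean by -33.2%, or by -20.8% from untreated replicate 1 alone. The plot of subgroup sums shows the same 4 values for every subgroup. MCM5 (chr22:35400134-35425431) had 249 and 501 CPM in untreated cells, and 191 and 154 CPM after doxorubicin. Its log2 fold change was -1.27 ± 0.43 (SE, n = 2 a group), with an unadjusted p of 0.0268 and an adjusted p of 0.773 in edgeR. Without untreated replicate 2 it was -0.67 ± 0.22, with an adjusted p of 0.0366 in edgeR. MCM5 was thus the ring subunit with the lowest fold change in both fits. MCM7 (chr7:100092233-100101940) had 530 and 846 CPM in untreated cells, and 413 and 379 CPM after doxorubicin. The fitted log2 fold change was -0.95 ± 0.33, with an unadjusted p of 0.0321 in edgeR. Without untreated replicate 2 it was -0.56, with an adjusted p of 0.0921 in edgeR. The promoter printed above for MCM7 holds 2 E2F motifs, and the MCM7 gene also hosts microRNAs in an intron.

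The other subunits were lower by less. MCM4 had 481 and 559 CPM in untreated cells, and 387 and 386 CPM after doxorubicin, a log2 fold change of -0.58 ± 0.27, and -0.45 without untreated replicate 2. MCM3 had 311 and 453 CPM, and then 272 and 283 CPM (-0.62 ± 0.31, and -0.30). MCM6 had 171 and 262 CPM, and then 150 and 163 CPM (-0.63 ± 0.34, and -0.27). In each of these 3 genes both doxorubicin libraries lay below both untreated ones. MCM2, the ring subunit with a histone-binding tail, was the exception. It had 305 and 186 CPM in untreated cells, and 243 and 223 CPM after doxorubicin (-0.23 ± 0.35, and -0.53). Its groups overlapped, with untreated replicate 2 the lowest library and both doxorubicin libraries below untreated replicate 1. A long noncoding RNA on the opposite strand covers 32.4% of the exon bases of MCM2, and the sources used here do not say whether counting used strand.

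**Figure D3:**
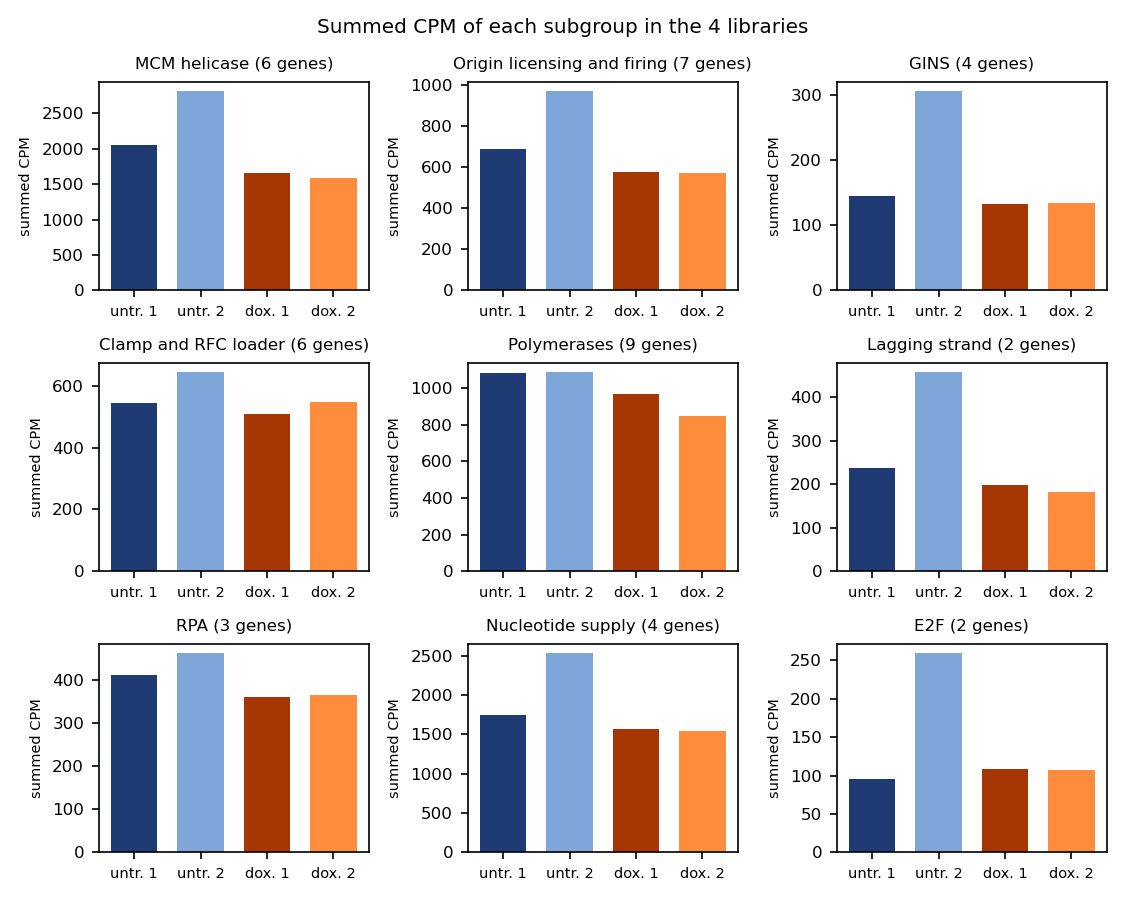
Bars give the summed CPM of the genes of each subgroup in the 4 libraries (untr., untreated; dox., doxorubicin), each panel on its own scale from 0, with no error bars since each bar is 1 library. Both doxorubicin bars are below both untreated bars in 7 of the 9 panels, the exceptions being the clamp and RFC loader and E2F.

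The ring subunits work in equal numbers in the protein complex, so their levels were also compared per length, as CPM per kb of exons. In untreated replicate 1 and both doxorubicin libraries the order was MCM7, MCM4, MCM3, MCM2, MCM5 and MCM6 from high to low. The ratio of the highest to the lowest was 2.80 in untreated replicate 1, and 2.49 and 2.10 after doxorubicin. In untreated replicate 2 the order was MCM7, MCM5, MCM3, MCM4, MCM6 and MCM2, with a ratio of 3.76. MCM2 made up 16.4% and 7.30% of the summed per-length level in untreated replicates 1 and 2, and 16.1% and 15.4% after doxorubicin. The balance of the ring thus differed more between the untreated replicates than between treated cells and untreated replicate 1. Neighbors in the order, such as MCM4 and MCM3 after doxorubicin (88.8 and 88.4 CPM per kb in replicate 2), were not separated beyond the spread.

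**Figure D4:**
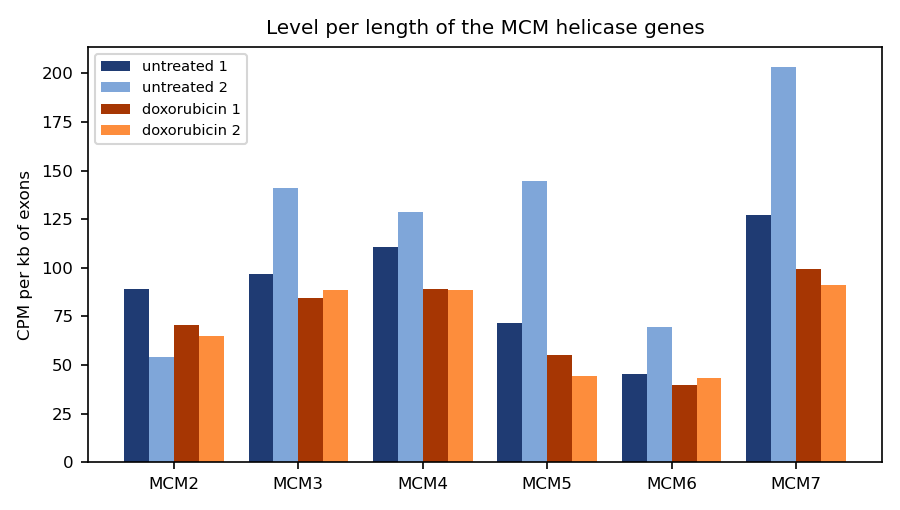
Bars give the level per length (CPM per kb of exons) of MCM2 to MCM7 in the 4 libraries, 1 bar a library, without error bars. MCM7 is highest in all 4, and untreated replicate 2 stands out by high MCM5 and MCM7 and low MCM2.

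Genes that license and fire origins were lower in sum, at 689 and 967 CPM in untreated replicates 1 and 2 and 576 and 569 CPM in doxorubicin replicates 1 and 2. The difference of the means was -30.8%, or -16.9% from untreated replicate 1 alone, and all 7 fold changes were below 0 in both fits. ORC1, the ATPase subunit of the origin recognition complex (chr1:52372829-52404423), had 66.3 and 77.7 CPM in untreated cells, and 43.1 and 37.9 CPM after doxorubicin. This gave a log2 fold change of -0.98 ± 0.34, with an unadjusted p of 0.0304 and an adjusted p of 0.773 in edgeR. Without untreated replicate 2 it was -0.85 ± 0.23, with an adjusted p of 0.00923 in edgeR. ORC1 was therefore the gene of the module with the smallest adjusted p in that fit, and its fold change depended little on untreated replicate 2. CDC6, which recruits MCM2-7 to ORC, had 178 and 235 CPM in untreated cells, and 138 and 141 CPM after doxorubicin (-0.72 ± 0.31, and -0.49). CDT1, its partner in loading, had 192 and 319 CPM, and then 175 and 155 CPM (-0.78 ± 0.36, and -0.35). GMNN encodes geminin, which binds CDT1 and blocks relicensing, and had 88.1 and 116 CPM, and then 79.5 and 86.4 CPM (-0.46 ± 0.32, and -0.23). The groups of these 4 genes did not overlap. Per kb of exons, the ratio of CDT1 to GMNN was 1.11 and 1.40 in untreated cells, and 1.12 and 0.917 after doxorubicin, so the groups overlapped.

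The remaining licensing and firing genes overlapped between groups in CPM. On CPM scaled by TMM factors, both doxorubicin libraries lay below both untreated ones in each of them. ORC6, the smallest ORC subunit, had 56.7 and 124 CPM in untreated cells, and 51.4 and 59.0 CPM after doxorubicin (-0.87 ± 0.46, and -0.18). MCM10, an activator of the helicase, had 57.6 and 53.7 CPM, and then 46.2 and 54.8 CPM (-0.30 ± 0.33, and -0.33). CDC45, which joins the active helicase, had a log2 fold change of -0.38 ± 0.36, and -0.50 without untreated replicate 2. GINS, the 4-subunit partner of CDC45, had a difference that depended strongly on untreated replicate 2. Its sum was 145 and 306 CPM in untreated replicates 1 and 2, and 133 and 134 CPM after doxorubicin. The difference was -40.8% with all libraries and -7.89% from untreated replicate 1 alone. GINS2 (chr16:85676198-85690073) had 53.9 and 86.6 CPM in untreated cells, and 40.6 and 37.2 CPM after doxorubicin. The log2 fold change was -1.01 ± 0.39, with an unadjusted p of 0.0445 in edgeR, and -0.61 without untreated replicate 2. GINS2 thus had both doxorubicin libraries below both untreated ones. GINS3 had 25.2 and 103 CPM, and then 25.5 and 26.8 CPM (-1.45 ± 0.68, and -0.09 without untreated replicate 2). GINS4 had 27.2 and 94.7 CPM, and then 26.6 and 23.0 CPM (-1.45 ± 0.64, and -0.27). GINS1 had 38.6 and 21.6 CPM, and then 40.2 and 46.9 CPM (0.37 ± 0.43, and 0.03). In GINS3, GINS4 and GINS1 the doxorubicin libraries thus lay close to untreated replicate 1, and untreated replicate 2 alone was far off. Noncoding RNAs on the opposite strand cover 16.5% of GINS3 and 21.1% of GINS4 exon bases.

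PCNA, the sliding clamp, was lower, while the genes of its loader were mixed. PCNA had 214 and 348 CPM in untreated cells, and 182 and 196 CPM after doxorubicin, a log2 fold change of -0.73 ± 0.35, and -0.32 without untreated replicate 2. Its groups did not overlap. PCNA also serves in DNA repair. RFC1, the large subunit of the clamp loader, had 62.8 and 25.6 CPM, and then 69.4 and 91.6 CPM (0.70 ± 0.51, and 0.22), the highest fold change of the 43 genes. RFC5 had 40.8 and 62.7 CPM, and then 37.0 and 40.1 CPM (-0.58 ± 0.38, and -0.22). RFC2, RFC3 and RFC4 overlapped between groups in CPM, though RFC2 was lower without overlap on CPM scaled by TMM factors. Their log2 fold changes were -0.31, 0.01 and 0.01. Without untreated replicate 2 they were -0.13, -0.26 and -0.16, so the sign of RFC3 and RFC4 turned. The sum over PCNA and the 5 RFC genes was 543 and 642 CPM in untreated replicates 1 and 2, and 509 and 548 CPM after doxorubicin. The difference was -10.9%, or -2.73% from untreated replicate 1, and the groups overlapped.

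Polymerase genes were lower in sum by about the same amount whichever untreated library was used. The sum of 9 genes was 1083 and 1084 CPM in untreated replicates 1 and 2, and 969 and 847 CPM after doxorubicin, a difference of -16.2%, or -16.1% from untreated replicate 1 alone. It was the only subgroup sum on which the untreated replicates stood level, at a ratio of 1.00. POLD1, the catalytic subunit of polymerase delta, had 228 and 234 CPM in untreated cells, and 187 and 166 CPM after doxorubicin (-0.54 ± 0.29, and -0.50 without untreated replicate 2). POLD2, a subunit of the same enzyme, had 533 and 638 CPM, and then 493 and 383 CPM (-0.57 ± 0.30, and -0.42). POLE, the catalytic subunit of polymerase epsilon, had 133 and 114 CPM, and then 113 and 102 CPM (-0.35 ± 0.31, and -0.44). POLA2, a subunit of polymerase alpha, had 15.6 and 17.8 CPM, and then 14.9 and 10.0 CPM (-0.57 ± 0.45, and -0.45). The doxorubicin libraries lay below the untreated ones in these 4 genes, by a narrow margin for POLE.

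The other 5 polymerase genes were spread around 0 with all libraries, and 8 of the 9 in the subgroup were below 0 without untreated replicate 2. PRIM1, the catalytic subunit of primase, had 20.5 and 13.5 CPM in untreated cells, and 22.3 and 27.5 CPM after doxorubicin (0.39 ± 0.42, and 0.14). POLD3 had 27.2 and 10.4 CPM, and then 27.6 and 30.2 CPM (0.46 ± 0.55, and -0.05). Both were higher in the doxorubicin libraries without overlap in CPM. Against untreated replicate 1, the doxorubicin mean was higher by 21.3% for PRIM1 and by 6.17% for POLD3. On CPM scaled by TMM factors the groups of POLD3 overlapped. PRIM2, the large primase subunit, was named after its values were seen, since it had the lowest ratio between the untreated replicates. It had 30.9 and 7.72 CPM in untreated cells, and 28.6 and 30.3 CPM after doxorubicin (0.44 ± 0.68, and -0.21 without untreated replicate 2). POLA1, the catalytic subunit of polymerase alpha, overlapped (0.19 ± 0.44, and -0.22), as did POLE2, a subunit of polymerase epsilon (-0.24 ± 0.50, and -0.31). Another gene on the same strand shares 43.5% of the exon bases of POLA2, 16.2% of PRIM1 and 10.9% of POLD1, so their counts are less certain.

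Of the enzymes that finish the lagging strand, FEN1, the flap endonuclease (chr11:61792911-61797238), had 178 and 404 CPM in untreated cells, and 151 and 143 CPM after doxorubicin. Its log2 fold change was -1.14 ± 0.45, with an unadjusted p of 0.0482 in edgeR, and -0.41 ± 0.22 without untreated replicate 2. LIG1, the ligase that seals the fragments, had 58.4 and 52.2 CPM, and then 47.9 and 38.9 CPM (-0.50 ± 0.35, and -0.56). Neither gene had overlapping groups, and the untreated replicates lay closer in LIG1. The sum of both genes was 236 and 456 CPM in untreated replicates 1 and 2, and 199 and 182 CPM after doxorubicin (-45.0%, or -19.4% from untreated replicate 1). RPA, the complex on single strands, had a sum of 412 and 462 CPM in untreated replicates 1 and 2, and 362 and 365 CPM after doxorubicin (-16.9%, or -11.7% from untreated replicate 1). RPA1 had 317 and 338 CPM, and then 272 and 272 CPM (-0.42 ± 0.27, and -0.36). RPA2 had 69.0 and 76.7 CPM, and then 64.6 and 67.4 CPM (-0.30 ± 0.32, and -0.20). RPA3 had 25.7 and 47.8 CPM, and then 24.7 and 25.4 CPM (-0.71 ± 0.44, and -0.18). All 3 RPA genes were lower after doxorubicin in every pair of libraries, by a margin below untreated replicate 1 that was small for RPA2 (-4.37% for the doxorubicin mean) and RPA3 (-2.56%).

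Genes that supply nucleotides summed to 1750 and 2531 CPM in untreated replicates 1 and 2, and to 1565 and 1544 CPM after doxorubicin (-27.4%, or -11.2% from untreated replicate 1). TK1, the thymidine kinase of S phase (chr17:78174091-78187233), had 393 and 1155 CPM in untreated cells, and 369 and 291 CPM after doxorubicin. Its log2 fold change was -1.38 ± 0.55, with an unadjusted p of 0.0477 in edgeR, and -0.39 ± 0.22 without untreated replicate 2. Most of the TK1 difference therefore rested on untreated replicate 2. RRM2, the regulated small subunit of ribonucleotide reductase, had 225 and 183 CPM, and then 184 and 145 CPM (-0.46 ± 0.32, and -0.59). RRM1, its large subunit, had 1091 and 1139 CPM, and then 978 and 1070 CPM (-0.28 ± 0.25, and -0.23), and had the highest level per kb of the 43 genes in untreated replicate 1 and both doxorubicin libraries (285 to 319 CPM per kb). Per kb of exons, RRM1 exceeded RRM2 by a ratio of 5.77 and 7.42 in untreated cells, and of 6.32 and 8.76 after doxorubicin, which overlapped. TYMS, thymidylate synthase, had 40.7 and 54.3 CPM, and then 34.1 and 37.3 CPM (-0.57 ± 0.36, and -0.33), without overlap. ENOSF1, on the opposite strand, shares 60.0% of the exon bases of TYMS, so reads of both genes may be mixed in this value.

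The E2F factors, which drive transcription of many genes above, had fold changes that depended on untreated replicate 2. E2F1 had 61.0 and 188 CPM in untreated cells, and 76.6 and 77.0 CPM after doxorubicin. Its log2 fold change was -0.85 ± 0.56 with all libraries and 0.19 ± 0.24 without untreated replicate 2. E2F2 had 34.2 and 71.5 CPM, and then 32.0 and 30.9 CPM (-0.90 ± 0.46, and -0.26). For E2F1 both doxorubicin libraries were above untreated replicate 1 and below untreated replicate 2, so its direction was set by which untreated library was used. Per kb of exons, the ratio of E2F1 to E2F2 was 3.44 and 5.07 in untreated cells, and 4.63 and 4.82 after doxorubicin. The sum of both genes was 95.3 and 259 CPM in untreated replicates 1 and 2, and 109 and 108 CPM after doxorubicin.

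The deviation of untreated replicate 2 was wide and went both ways among the 43 genes, more often upward. That library had the highest of the 4 values for 28 genes (36.6% of all genes) and the lowest for 9 (45.1% of all genes). The median size of the log2 ratio between the untreated replicates was 0.61 for the module and 0.89 for all genes tested, and the treated pair had 0.13 and 0.25. In 15 genes untreated replicate 2 was at least 1.5 times untreated replicate 1, led by GINS3 (4.09-fold), GINS4 (3.49-fold), E2F1 (3.07-fold) and TK1 (2.94-fold). Their median log2 fold change was -0.90 with all libraries and -0.27 without that one. In 8 genes it was at or below the matching limit under untreated replicate 1, among them PRIM2, POLD3 and RFC1. Their median was 0.38 with all libraries and -0.13 without it. The 20 genes between these limits, whose untreated replicates lay close, had medians of -0.46 and -0.39. The size and sign of the 4-library fold change thus moved with the ratio of the untreated replicates, which enters both quantities.

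GC content varied with these ratios. Across the 43 genes, the log2 ratio of untreated replicate 2 to 1 had a Pearson r of 0.41 and a Spearman rho of 0.49 with the GC content of the transcript, against 0.18 and 0.19 over 14468 tested genes with a value (82.8%). The ratio of doxorubicin replicate 2 to 1 had r = -0.70 (rho -0.76), against -0.31 over all. The ratio of the doxorubicin mean to untreated replicate 1 had r = -0.38 (rho -0.48), against -0.04 over all. These are descriptions over genes of the same libraries, which are not independent replicates, and the part of GC content in the fold changes was not tested. With transcript length the untreated ratio had r = -0.20 in the module and -0.25 over all genes.

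**Figure D5:**
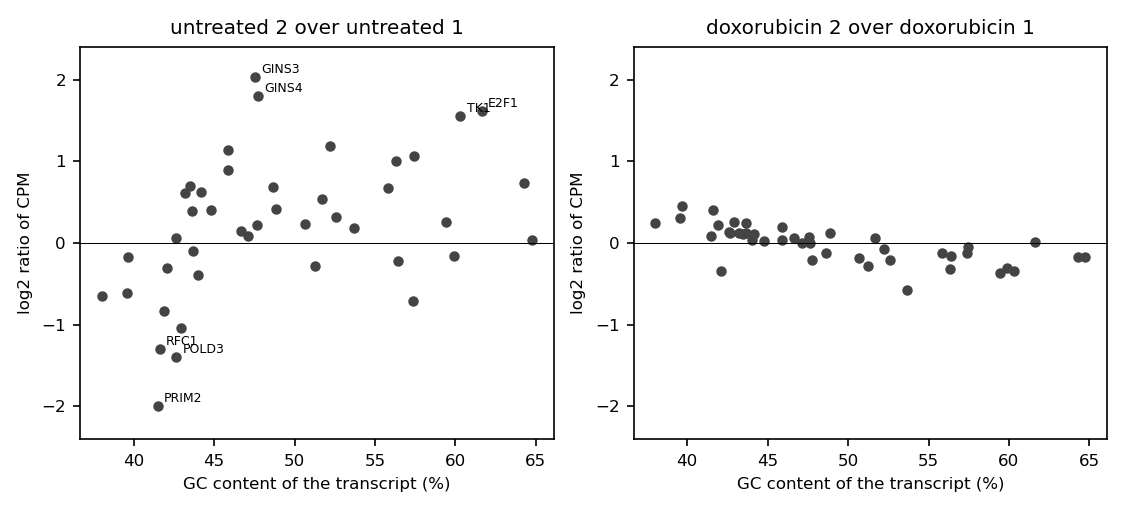
Each point is 1 of the 43 genes, with the GC content of its transcript (%) on the x axis and the log2 ratio of CPM between replicates on the y axis, for untreated replicates on the left and doxorubicin replicates on the right. The left panel spreads from PRIM2 at the bottom to GINS3 at the top, while the right panel is narrow and slopes downward (r = -0.70).

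Other replication genes lay near the background of all genes in the fit of 4 libraries. Of a further list of 54 genes (remaining ORC subunits, kinases of origin firing, fork protection, chromatin assembly, other E2F factors and more), 30 had a log2 fold change below 0 (49.2% of all genes), with a median of -0.08. The fit without untreated replicate 2 put 42 below 0 (46% of all genes), with a median of -0.20. Their difference from the 43 was not tested. ASF1B, a histone chaperone, was the only gene of the list past an unadjusted 0.05 in edgeR (1.73% of all genes were lower at that level), with an unadjusted p of 0.0390 and an adjusted p of 0.773 in that edgeR fit. It had 123 and 720 CPM in untreated cells, and 110 and 101 CPM after doxorubicin (-2.15 ± 0.80, and -0.37 without untreated replicate 2). Next lowest were E2F8, a repressor of the E2F family (-1.66 ± 0.73, and -0.46), and CHTF8, of an alternative clamp loader (-1.34 ± 0.75, and -0.41). CHTF8 had only 21 to 73 counts in a library. The 3 highest were TFDP2, a dimer partner of E2F (0.92 and 0.38), the ORC subunit ORC3 (0.85 and 0.25) and WDHD1, a fork factor (0.67 and 0.20). Without untreated replicate 2, UHRF1, which recruits the maintenance methylase, had -0.78 (adjusted p = 0.0106 in edgeR) and POLD4, the small subunit of polymerase delta, had 1.17 (adjusted p = 0.0175 in edgeR). With all libraries they had -0.41 ± 0.42 and 0.48 ± 0.58, with adjusted p of 0.802 and 0.819 in edgeR. POLD4 had only 3.47 and 7.69 CPM in untreated cells, and 9.59 and 7.51 CPM after doxorubicin.

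A list of G2/M genes was set beside the module. Of its 19 genes analysed here, 11 had a log2 fold change below 0 (49.2% of all genes), with a median of -0.16. The fit without untreated replicate 2 put 12 below 0 (46% of all genes), with a median of -0.16 again. Both doxorubicin libraries lay below both untreated libraries in CPM for 4 genes (11.5% of all genes). They lay above both for 3 genes, CENPE, TOP2A and CENPF (30.3% of all genes), and 12 genes overlapped. CENPE had 14.4 and 6.20 CPM in untreated cells, and 20.8 and 32.6 CPM after doxorubicin. CDC20, an activator of the anaphase-promoting complex, had 279 and 299 CPM in untreated cells, and 174 and 157 CPM after doxorubicin. Its log2 fold change was -0.96 ± 0.29, with an unadjusted p of 0.0178 and an adjusted p of 0.773 in edgeR. Without untreated replicate 2, CDC20 had -0.89 (adjusted p = 0.00180 in edgeR) and PLK1, a mitotic kinase, had -0.88 (adjusted p = 0.00202 in edgeR), both smaller in adjusted p than any gene of the module. PLK1 had 312 and 111 CPM in untreated cells, and 201 and 171 CPM after doxorubicin, and its log2 fold change with all libraries was -0.34 ± 0.53. Whether the lists differ from the module was not tested.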

How the data were processed

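RNA was isolated with Trizol and poly(A) selected, and cDNA was primed with random hexamers. The authors deposited unnormalized read counts per gene for 4 libraries. According to the methods, reads were cleaned with FastQC and Cutadapt, aligned to hg38 by HISAT2 and counted by HTSeq, while the file headers show GENCODE release 31 and the layout of featureCounts. Versions and strand use are not given in the sources used here. The treatment tag of the treated samples reads p53-miRNA. Titles give only nop53 or p53, so the protocol and design text were followed for the drug. The design text speaks of biological replicates, but no label names separate cultures, so p-values measure only the spread between these libraries.

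CPM was the count over the column total. Genes were filtered by filterByExpr, scaled by TMM and tested over all 17479 genes by glmQLFTest of edgeR 4.0.16 (R 4.3.3) without a block, with the thresholds of the study (adjusted p under 0.05, log2 fold change of at least 1). DESeq2 1.42.0, other edgeR tests, scalings, filters, a replicate block and leaving out each library were alternatives. The test was also run on simulated counts. These held no library that stood apart, so they do not show how the test performs on these data. Motifs were read from RefSeq promoters, and transcript length and GC from GENCODE 44. Genes named were MCM2-7, PCNA, CDC6, CDT1, GMNN, TYMS, RRM2, E2F1, E2F2, the extremes of each other subgroup, and members whose groups did not overlap or had an unadjusted p under 0.05; of the further list, those at that p and the 3 lowest and 3 highest. Members and lists were chosen with earlier results of these data known. KIF23 of the G2/M list was not analysed here. The counts hold no molecular identifiers.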

Additional observations from a re-analysis of the deposited data

How the results depend on the processing

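The direction of the module held in every alternative run: between 34 and 39 of the 43 genes were below 0, and the median log2 fold change ran from -0.69 to -0.31. Genes called in the series (0 here) came to 46 with the exact test, 64 with the likelihood ratio test and 89 with DESeq2, and from 0 to 7173 when 1 library was left out. Members at an unadjusted p under 0.05 (6 here) came to 2 with library totals alone, and from 0 to 32 when 1 library was left out. Library totals alone put the median of all genes at 0.17 in place of 0.01 and the share of unadjusted calls that were higher at 80.8% in place of 60.5%. That share was 43.3% with the exact test, 42.1% with the likelihood ratio test, 29.2% with DESeq2 and 37.5% without a filter. With a replicate block, 21 genes were called and 3 members had an unadjusted p under 0.05. The deviations of same-numbered libraries had a correlation of 0.0219. With 1 library far from the others, this value cannot tell whether same-numbered libraries were paired.

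Leaving out 1 library moved the log2 ratio of summed CPM between -0.79 and -0.34 for the MCM helicase, -0.76 and -0.27 for licensing and firing, -1.20 and -0.12 for GINS, -0.28 and -0.04 for the clamp and loader, -0.35 and -0.16 for polymerases, -1.26 and -0.31 for the lagging strand, -0.35 and -0.18 for RPA, -0.70 and -0.17 for nucleotide supply, and -1.26 and 0.18 for E2F, which reversed. TMM factors, chosen after the data were seen, gave -0.32 for the clamp and loader, -0.41 for polymerases and -0.42 for RPA. Of 473 values per gene over 11 other settings, 465 stayed on their side and 8 reversed, in RFC3 (DESeq2 -0.037, RLE -0.038, upper quartile -0.019, stricter filter -0.0079) and RFC4 (-0.045, -0.045, -0.034 and -0.018 in that order). Leaving out 1 library reversed 7 genes: MCM2 (-0.53 to 0.14), RFC3 (-0.26 to 0.35), RFC4 (-0.16 to 0.19), POLA1 (-0.22 to 0.78), PRIM2 (-0.21 to 1.75), POLD3 (-0.054 to 1.30) and E2F1 (-1.47 to 0.19). The cause was not tested.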
